A study of Homo sapiens with 4 samples.

Results

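The genes described here encode proteins that assemble ribosomes in the nucleolus. They were taken by name: gene names that begin with UTP, NOP, RRP or PWP and a digit, together with BOP1, PES1, FBL, NCL and DKC1, and without hyphenated readthrough names. The rule found 33 genes among the 12119 genes listed in any deposited table, and all 33 were listed in all 4 libraries. All RNA came from MDA-MB-231, an established line from a human breast cancer of the triple-negative kind, kept in L15 medium with serum. In one pair of libraries the long non-coding RNA LINC00882 was silenced (si_LINC00882), and its counterpart received a non-targeting control (si_NC). In the other pair, RNA that came down with PABPC1, a protein that coats the poly(A) tails of cytoplasmic mRNAs, was set against the lysate it was taken from (input), and neither of these was labelled as silenced. The protocol names an siRNA and a Smart Silencer for the knockdown, and an IgG control for the pulldown that was not analysed here. Each group was 1 library, so no difference below could be set against a replicate error and no test was possible. The level of the silenced RNA was not analysed here, which leaves the knockdown unchecked. PABPC1 mRNA stood at 158 FPKM (the unit is defined below) in si_LINC00882 against 173 in si_NC, and at 255 in the pulldown against 412 in input.

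Ribosomes are built in the nucleolus on a long precursor RNA that is transcribed, modified, folded and cut while ribosomal proteins join it. The small subunit is assembled in a very large particle, the small-subunit processome, whose UTP-A and UTP-B subcomplexes bind the precursor early. Small nucleolar ribonucleoproteins (snoRNPs) guide methylation and pseudouridylation of the RNA, and other factors cut and fold the large subunit. Growing tumour cells make many ribosomes, and the genes of this pathway are well-known targets of the transcription factor MYC.

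Values are FPKM, fragment totals divided by transcript length and by the size of the library, so levels can be set side by side between genes. The depth of the libraries is not given, and the precision of a single value is therefore unknown. Differences are log2 ratios of FPKM plus 1 within a pair of libraries, for genes that reached 1 FPKM in one library or both, and a ratio of 1 or -1 (2-fold) was used as the rule of size. The pseudocount makes the ratio of a low gene smaller than its plain fold. The summed FPKM was 216346 in si_LINC00882, 209725 in si_NC, 197844 in the pulldown and 338894 in input. The 13 mitochondrially encoded mRNAs took 19.3% of that sum in si_LINC00882, 16.3% in si_NC, 3.08% in the pulldown and 47.3% in input. All 7 markers chosen for MDA-MB-231 cells were listed, at 819 to 1066 FPKM in sum, with VIM at 155 to 367 and AXL at 184 to 244. Of 8 luminal breast genes 4 were listed, at 77.0 to 91.9 FPKM in sum, and ESR1, PGR, CDH1 and FOXA1 were not among the listed genes. Of 6 markers of blood, endothelial and stromal cells 3 were listed, none above 0.691 FPKM.

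All 33 assembly factor mRNAs were found at 1 FPKM or more in the si_NC library, and 32 were in each of the others. The median level was 17.6 FPKM in si_LINC00882, 17.8 in si_NC, 13.1 in the pulldown and 11.4 in input. The gene below 1 FPKM was PWP2 in the si_LINC00882 library and the pulldown, and NOP9 in input. In bulk libraries such as these, fewer cells that hold an mRNA and less of it per cell cannot be told apart. Summed over the 33 genes, the level was 894 FPKM in si_LINC00882 against 946 in si_NC, and 888 in the pulldown against 844 in input. As a share of the FPKM of all genes without the mitochondrial mRNAs, this was 0.512% against 0.539% in the silencer pair and 0.463% against 0.472% in the pulldown pair. A single gene, NOP10, made up 14.7% of the sum in si_LINC00882, 11.5% in si_NC, 26.8% in the pulldown and 36.2% in input. With NOP10 left out, the share was 0.436% in si_LINC00882 against 0.477% in si_NC. In the pulldown it was then 0.339% against 0.301% in input, so the direction in that pair depended on NOP10. NOP10 encodes the smallest protein of the H/ACA snoRNPs, which pseudouridylate RNA. It was the highest of the 33 in every library but si_NC, where NCL, the gene of the RNA-binding nucleolar protein nucleolin, stood above it.

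**Figure D1:**
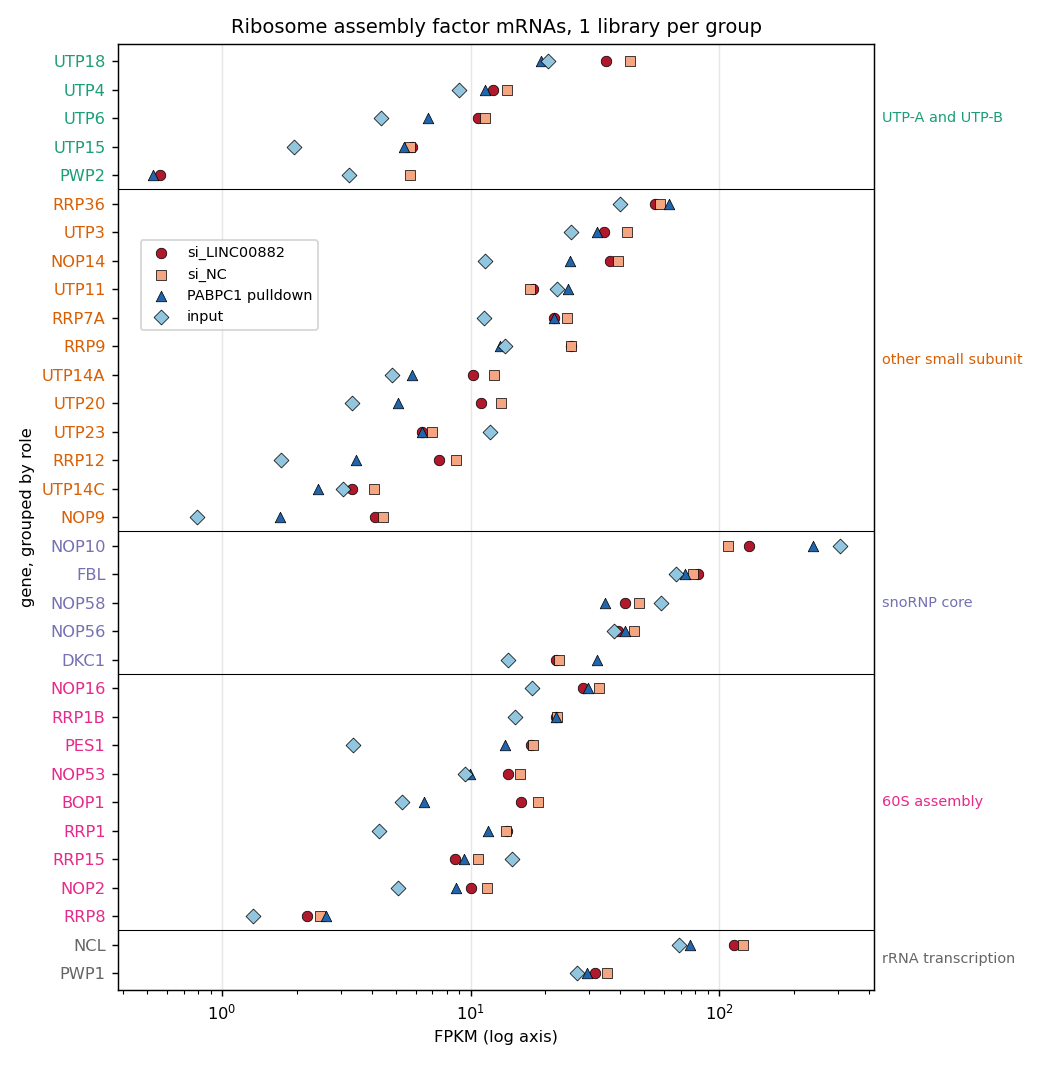
Level of each of the 33 ribosome assembly factor mRNAs in the 4 libraries (FPKM, log axis, 1 point per library), with genes grouped by the role of their protein. PWP2 has a point at 0.560 FPKM in si_LINC00882 and 0.525 in the pulldown, far to the left of its points for si_NC (5.71) and input (3.23), and the input point lies to the left for many other genes.

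In the silencer comparison the assembly factors stood slightly lower as a group, and a single gene, PWP2, was past 2-fold. PWP2 encodes a WD-repeat protein of the UTP-B subcomplex of the small-subunit processome. It stood at 0.560 FPKM in si_LINC00882 against 5.71 in si_NC, a plain fold of 10.2 lower and a log2 ratio of -2.10. Of the 10478 genes compared in this pair, 13 had a lower ratio. It was also the lowest of the 33 in the pulldown comparison, at 0.525 FPKM in the pulldown against 3.23 in input (6.15-fold lower, log2 ratio -1.47), where 84 of 10856 genes were lower. PWP2 was thus below 1 FPKM in the si_LINC00882 and pulldown libraries and above 3 FPKM in both controls. It passed the minimum in each pair through its control level alone. These levels also fix the sign of its ratios with the controls exchanged, which are no further evidence. They were -1.44 for si_LINC00882 over input and -2.14 for the pulldown over si_NC. Of the 10230 genes compared in both pairs 13 were 2-fold lower in both, PWP2 among them. No other listed gene overlaps the span of PWP2 in RefSeq. Of its protein-coding neighbours, C21orf33 stood at 3.29 FPKM in si_LINC00882 against 9.81 in si_NC (-1.33), and at 1.68 in the pulldown against 0.997 in input (0.42). TRAPPC10, the neighbour on the other side, stood at 6.23 against 6.25 FPKM (-0.00) and at 6.08 against 2.97 (0.83). Whether fragments were shared among these neighbours was not tested.

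None of the 33 genes was 2-fold higher and 1 was 2-fold lower in si_LINC00882 (3.03%), where 0.859% of all genes compared were 2-fold higher and 1.15% lower (2.01% in either direction). A count of 1 gene says little against that background. The direction was more uniform than the size: 28 of 33 stood below equal levels, where 51.1% of all genes did. The median log2 ratio was -0.15, and that of all genes -0.01. The quartiles of the 33 ratios were -0.22 and -0.04, and those of all genes -0.16 and 0.15, so the ratios were of a size that many genes had. Other genes of the same process leaned the same way by less, as the comparison of lists below gives.

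**Figure D2:**
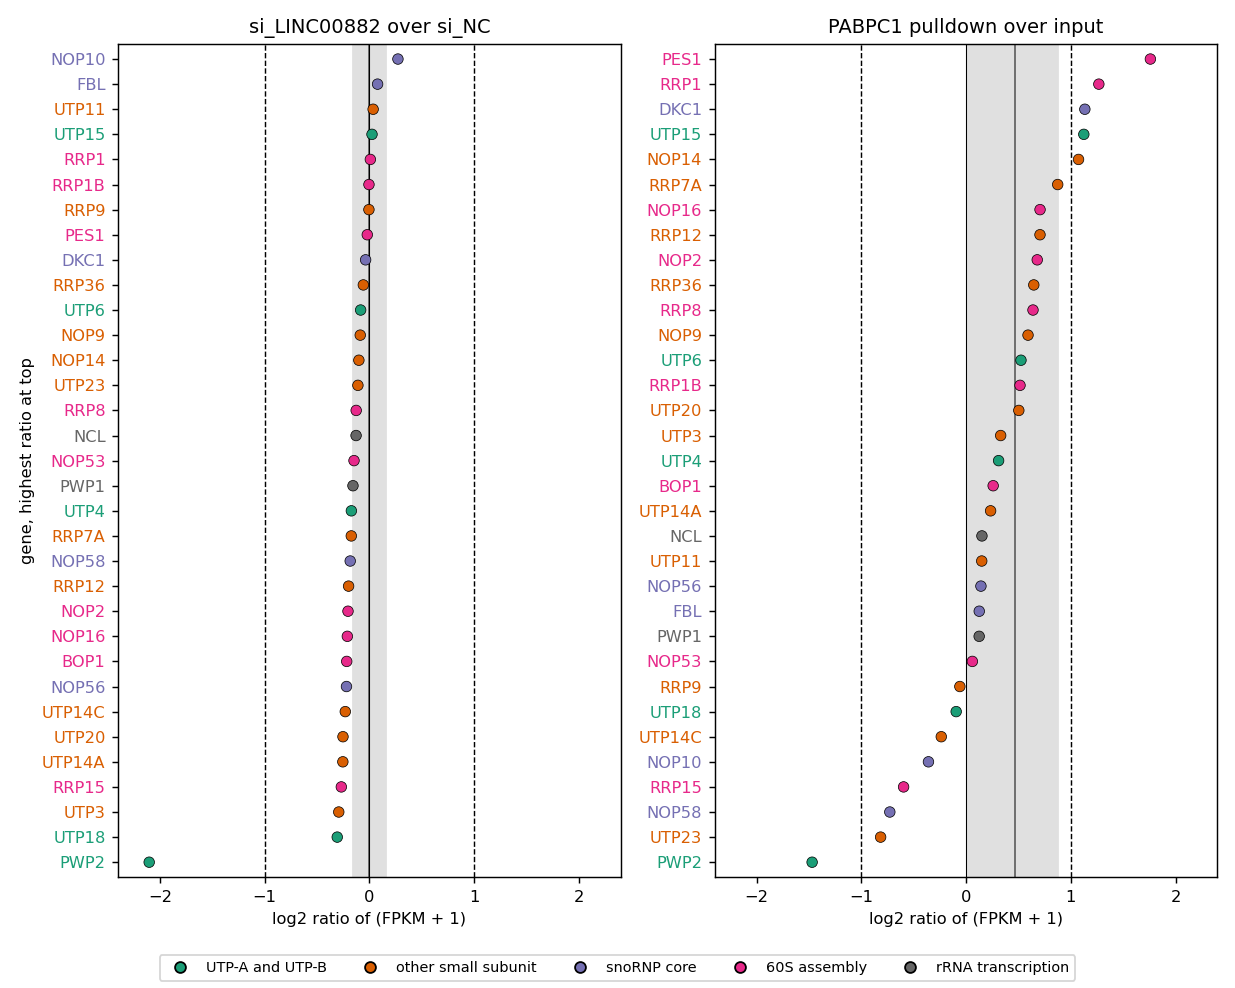
Log2 ratio of FPKM plus 1 for each of the 33 genes, sorted within each comparison, for si_LINC00882 over si_NC (left) and the PABPC1 pulldown over input (right), with colours for the role of the protein. Dashed lines mark 2-fold, the grey band runs between the quartiles of all genes compared and the grey line their median. On the left all genes but PWP2 lie between -0.31 and 0.27, and on the right the 33 genes spread from -1.47 (PWP2) to 1.76.

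The UTP-A and UTP-B genes among the 33 had a median of -0.17 in the silencer comparison. UTP18, a UTP-B protein, stood at 35.2 FPKM in si_LINC00882 against 43.8 in si_NC (-0.31), the lowest ratio after PWP2. Its span overlaps MBTD1, which stood at 3.65 against 3.37 FPKM (0.09), and in the pulldown pair at 3.50 against 1.87 (0.65). UTP6, also of UTP-B, stood at 10.7 against 11.4 FPKM (-0.08). Of the UTP-A genes, UTP4 stood at 12.3 against 14.0 FPKM (-0.17). UTP15 stood at 5.81 against 5.70 FPKM (0.02). So of the UTP-B genes among the 33, UTP6 and UTP18 were within 2-fold of their control levels and PWP2 was not. UTP-B genes with other names were not set apart.

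The other 12 genes of the small-subunit processome and of 40S assembly among the 33 had a median of -0.14, with 11 of 12 below equal levels. UTP3, the human relative of yeast Sas10, stood at 34.4 FPKM in si_LINC00882 against 42.4 in si_NC (-0.29). UTP20, a very large scaffold protein, stood at 11.0 against 13.3 FPKM (-0.25). RRP12, a factor of late 40S maturation, stood at 7.48 against 8.74 FPKM (-0.20). These were among the lower ratios and remained far from 2-fold. RRP7A stood at 21.6 against 24.5 FPKM (-0.17). NOP14 stood at 36.4 against 39.1 FPKM (-0.10). UTP23 stood at 6.37 against 6.96 FPKM (-0.11). NOP9, whose span overlaps DHRS1 and RABGGTA, was at 4.13 against 4.45 FPKM (-0.09), and the neighbours were at 2.36 against 2.88 (-0.21) and 3.33 against 2.89 (0.16). RRP36 was at 55.3 against 57.6 FPKM (-0.06). RRP9, a protein of the U3 snoRNP that base-pairs with the precursor RNA, was at 25.3 against 25.4 FPKM (-0.01). UTP11 was the gene of this set above its control, at 17.8 against 17.4 FPKM (0.03). The set thus lay between -0.29 and 0.03 on the log2 scale.

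UTP14A and UTP14C encode near copies of a processome protein, UTP14C being a retrocopy of UTP14A, so the division of fragments between them is uncertain. UTP14A stood at 10.2 FPKM in si_LINC00882 against 12.4 in si_NC (-0.25). UTP14C, which overlaps ALG11, stood at 3.34 against 4.09 FPKM (-0.23), and ALG11 at 1.20 against 1.16 (0.02). Both copies thus had nearly the same ratio.

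The 5 snoRNP core genes among the 33 had a median of -0.04. The H/ACA gene NOP10 had the highest ratio of the 33, at 132 FPKM in si_LINC00882 against 109 in si_NC (0.27). DKC1, the gene of dyskerin, the pseudouridine synthase of the same particles, stood at 22.1 against 22.7 FPKM (-0.04). The box C/D snoRNPs methylate RNA, and their methyltransferase gene FBL (fibrillarin) stood at 82.5 against 78.1 FPKM (0.08). Its partner genes NOP56 and NOP58 are paralogs. NOP56 stood at 39.0 against 45.6 FPKM (-0.22), and NOP58 at 41.8 against 47.6 (-0.18). The 2 highest ratios of the 33 therefore belonged to snoRNP genes, and the paralogs stood lower.

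The 9 genes of 60S assembly among the 33 had a median of -0.15. PES1 and BOP1 encode partners in the PeBoW complex, which is needed to cut the precursor of the large-subunit RNA. PES1 stood at 17.6 FPKM in si_LINC00882 against 17.8 in si_NC (-0.02), and BOP1 at 16.0 against 18.7 (-0.22). BOP1 overlaps SCX, which was at 0.683 against 0.643 FPKM. RRP15 was the lowest of this set, at 8.69 against 10.7 FPKM (-0.27). NOP2, an RNA cytosine methyltransferase of the large subunit, stood at 10.0 against 11.7 FPKM (-0.21). NOP16 stood at 28.2 against 32.8 FPKM (-0.21). NOP53 stood at 14.1 against 15.8 FPKM (-0.15). RRP8, an adenosine methyltransferase of the large-subunit RNA, was the lowest of the 33 in si_NC, at 2.19 against 2.48 FPKM (-0.13). The paralogs RRP1 and RRP1B were level, RRP1 at 14.01 against 13.9 FPKM (0.01) and RRP1B at 22.1 against 22.2 (-0.00). Of the genes tied to rRNA transcription, NCL stood at 114 against 125 FPKM (-0.13) and PWP1 at 31.5 against 35.3 (-0.16).

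In the pulldown comparison the assembly factors spread much further, and their counts were close to those of all genes. PES1, RRP1, DKC1, UTP15 and NOP14 were 2-fold higher in the pulldown than in input, 5 of 33 (15.2%), where 19.6% of all genes were. PWP2 was 2-fold lower, 1 of 33, where 2.37% of all genes were (21.9% in either direction). Above equal levels stood 25 of 33, where 76.1% of all genes did. The median of the 33 genes was 0.31 and that of all genes 0.47, and 15 of 33 lay above the median of all genes and 18 below it. With the pair centred on the median of all genes 1 of the 33 was 2-fold higher and 4 lower, where 7.39% of all genes were higher and 7.65% lower, so the direction of the group depended on how the libraries were scaled. Mitochondrial mRNAs had a median log2 ratio of -4.53 in this pair. With the libraries rescaled without them the median of the 33 genes was 0.22 and that of all genes 0.38, and 4 of the 33 were 2-fold higher, where 16.7% of all genes were. NOP14 was then just short of 2-fold (0.98), and PES1, RRP1, DKC1, UTP15 and PWP2 were past it.

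PES1 had the highest ratio of the 33 in the pulldown, at 13.8 FPKM against 3.36 in input (1.76), and 461 of 10856 genes were higher. RRP1 stood at 11.7 FPKM in the pulldown against 4.27 in input (1.27). Its paralog RRP1B stood at 22.0 against 15.1 FPKM (0.51). The pair therefore differed in the pulldown comparison and not in the silencer comparison. Among the other 60S genes NOP16 was at 29.6 against 17.7 FPKM (0.71), NOP2 at 8.75 against 5.09 (0.68) and RRP8 at 2.62 against 1.33 (0.64). BOP1, the partner of PES1, was at 6.52 against 5.29 FPKM (0.26), and NOP53 at 9.98 against 9.53 (0.06). RRP15 was lower in the pulldown, at 9.36 against 14.7 FPKM (-0.60). The median of the 9 genes was 0.64, above that of all genes.

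DKC1 stood at 32.2 FPKM in the pulldown against 14.1 in input (1.13). The other snoRNP core genes among the 33 lay well below it. FBL was at 73.1 against 66.9 FPKM (0.13) and NOP56 at 41.9 against 37.9 (0.14). NOP10 was lower in the pulldown, at 238 against 306 FPKM (-0.36), and NOP58 also, at 34.7 against 58.2 (-0.73). In FPKM as deposited NOP56 and NOP58 thus stood on opposite sides of equal levels. With the pair centred on the median of all genes both were below, at -0.32 and -1.19. The 5 genes had a median of 0.13.

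UTP15 stood at 5.42 FPKM in the pulldown against 1.94 in input (1.12), and UTP4, the other UTP-A gene of the 33, at 11.4 against 8.998 (0.31). Of the UTP-B genes among the 33, UTP6 was at 6.71 against 4.36 FPKM (0.52) and UTP18 at 19.2 against 20.6 (-0.10). NOP14 stood at 25.1 against 11.4 FPKM (1.07). It was the highest of its set, ahead of RRP7A, at 21.6 against 11.3 FPKM (0.87). RRP12 was at 3.45 against 1.73 FPKM (0.71), RRP36 at 63.1 against 39.96 (0.65), and NOP9 at 1.70 against 0.794 (0.59). The last of these has a plain fold of 2.14 and passed the minimum through its pulldown level. UTP20 was at 5.12 against 3.32 FPKM (0.50), UTP3 at 32.1 against 25.4 (0.33), UTP14A at 5.83 against 4.81 (0.23) and UTP11 at 24.7 against 22.2 (0.15). RRP9 was at 13.1 against 13.7 FPKM (-0.06) and UTP14C at 2.44 against 3.05 (-0.24), so the copies UTP14A and UTP14C lay on either side of equal levels as deposited, and both below with the pair centred. UTP23, a factor that acts on a snoRNA of the early particle in yeast, had the lowest ratio after PWP2, at 6.35 against 11.95 FPKM (-0.82). NCL stood at 76.5 against 68.8 FPKM (0.15) and PWP1 at 29.4 against 26.9 (0.12).

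**Figure D3:**
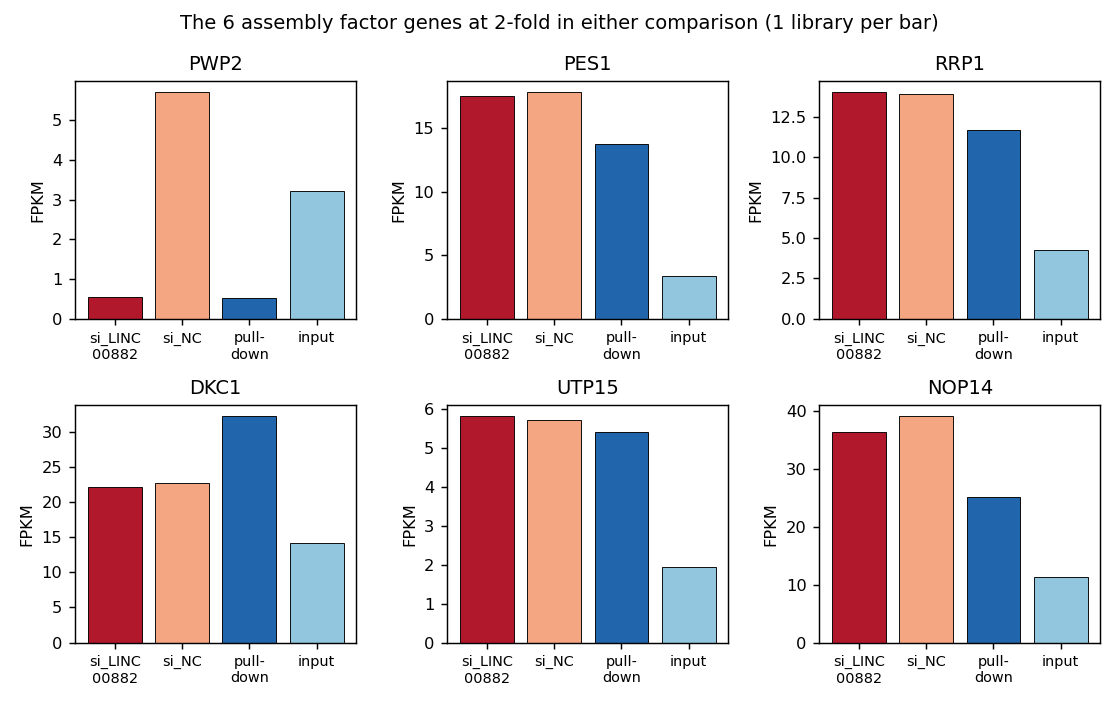
Level (FPKM, 1 library per bar, axes starting at 0) of the 6 assembly factor genes at 2-fold in either comparison. For PES1, RRP1, UTP15 and NOP14 the input bar is the lowest and the pulldown bar lies below the si_NC bar, for DKC1 the pulldown bar (32.2 FPKM) is the highest, and for PWP2 the si_LINC00882 and pulldown bars are the low ones.

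Many assembly factors were lower in the input library than in si_NC, and this library is the base of every pulldown ratio. These libraries had different handling, lie in tables that were made separately, and neither had a knockdown or a pulldown. In input over si_NC, 13 of 33 genes (39.4%) were 2-fold lower, where 19.2% of all genes were, and 1 was 2-fold higher, where 5.95% of all genes were (25.1% in either direction). Below equal levels stood 28 of 33, where 63.3% of all genes did. The median was -0.72, and that of all genes -0.29. Other genes of the pathway, listed further below, were also lower in input. Of 145 entries for them, 46 (31.7%) were 2-fold lower and 3 (2.07%) higher. Below equal levels stood 119 of these 145, and their median was -0.61. Among the assembly factors, the lower input level was thus not particular to the 33. The 13 genes of the 33 were PES1 (-2.11), RRP12 (-1.84), UTP20 (-1.72), NOP14 (-1.69), BOP1 (-1.65), NOP9 (-1.60), RRP1 (-1.50), UTP6 (-1.21), UTP14A (-1.21), UTP15 (-1.19), NOP2 (-1.06), UTP18 (-1.05) and RRP7A (-1.05). The gene in the other direction was NOP10, at 306 FPKM in input against 109 in si_NC (1.48). Above equal levels stood also UTP23 (0.70), RRP15 (0.43), UTP11 (0.34) and NOP58 (0.28).

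Ratios with the controls exchanged share libraries with those above, so they are given as levels beside them and not as further evidence. Set against si_NC in place of input, the pulldown was lower for 28 of the 33 genes, the exceptions being NOP10, UTP11, DKC1, RRP36 and RRP8. The median of the 33 was -0.35, and that of all genes 0.16. The pulldown was 2-fold higher for 1 of the 33 genes, NOP10 (1.12), where 7.16% of all genes were, and 2-fold lower for 6. These were PWP2 (-2.14), BOP1 (-1.39), UTP20 (-1.22), UTP18 (-1.15), RRP12 (-1.13) and NOP9 (-1.01), where 2.48% of all genes were 2-fold lower. Of the 5 genes 2-fold higher over input, DKC1 alone stayed above si_NC (0.48), while NOP14 (-0.62), PES1 (-0.35), RRP1 (-0.23) and UTP15 (-0.06) were below it. In the same way, si_LINC00882 over input was 2-fold higher for 9 of the 33 genes and 2-fold lower for 2, PWP2 (-1.44) and NOP10 (-1.21), where 19.1% of all genes were 2-fold higher and 5.99% lower. The median was 0.61, and that of all genes 0.28.

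Sequences upstream of the genes were read for the hexamer CACGTG, the E-box that MYC and related factors bind, because genes of this pathway are known among the targets of MYC. RefSeq promoter sequences (GRCh38.p14, a later build than that of the deposited values) were matched for 28 of the 33 genes, and the 250 bases before the start were searched. The hexamer reads the same on both strands. It was found in 6 of 28 genes (21.4%), in 17 of 121 other ribosome assembly genes (14.0%), in 4 of 67 ribosomal protein genes (5.97%), in 11.3% of listed genes with a promoter entry and in 7.73% of all genes in that set. The matches are shown with up to 27 bases on each side, 5′ to 3′ on the strand of the gene, and the hexamer is in capitals.
NOP10, chr15:34343137-34343174, minus strand: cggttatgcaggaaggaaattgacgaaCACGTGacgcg
NOP10, chr15:34343274-34343333, minus strand: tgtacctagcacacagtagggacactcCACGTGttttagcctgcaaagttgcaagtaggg
UTP20, chr12:101280068-101280104, plus strand: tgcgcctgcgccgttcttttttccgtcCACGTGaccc
UTP4, chr16:69132606-69132648, plus strand: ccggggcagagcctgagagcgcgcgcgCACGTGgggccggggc
UTP18, chr17:51260430-51260489, plus strand: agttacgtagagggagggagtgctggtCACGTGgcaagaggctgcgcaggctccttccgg
PWP1, chr12:107685637-107685696, plus strand: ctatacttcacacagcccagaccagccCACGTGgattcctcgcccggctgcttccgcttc
UTP14A, chrX:129905914-129905955, plus strand: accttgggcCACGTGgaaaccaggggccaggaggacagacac
The hexamers of UTP20, NOP10 and UTP4 begin 10, 11 and 16 bases before the start, and that of UTP14A 241 bases before it. The 6 genes had a median silencer ratio of -0.21 (-0.31 to 0.27) and a median pulldown ratio of 0.18 (-0.36 to 0.50). The 22 without a match had medians of -0.11 and 0.56. PWP2 (at -2.10 and -1.47) and PES1 (1.76 in the pulldown) were not among the 6. A match is a description of these letters only, and binding was not measured.

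Several of the 33 genes also carry small nucleolar RNAs within their span, a feature the choice of genes did not use. In RefSeq these were NOP56 with 5 snoRNA genes, NOP58 with 4, NCL with 3, DKC1 with 2 and NOP53 with 1. The deposited FPKM describe the host genes, and the snoRNAs were not analysed here. In the silencer comparison the 5 hosts had a median of -0.15 and lay between -0.22 and -0.04, against -0.14 for the 28 genes without snoRNAs. In the pulldown comparison the median of the hosts was 0.14, against 0.42 for the others, with DKC1 the highest host and NOP58 the lowest.

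Other genes of the pathway gave similar medians. Of 145 other ribosome assembly genes compared in the silencer pair, 3 were 2-fold higher (2.07%) and none 2-fold lower in si_LINC00882. These are entries: EMG1, a small-subunit gene, was listed under separate identifiers, at 7.64 and 1.57 FPKM in si_NC, and each was counted. The lower entry was below the minimum in the pulldown pair. Of all genes 0.859% were 2-fold higher and 1.15% lower. The median of the 145 genes was -0.07, and 63.4% were below equal levels. The 3 higher genes were SNU13, a protein shared by the spliceosome and box C/D snoRNPs, at 32.5 FPKM against 9.15 (1.73), NIP7, a 60S factor, at 19.1 against 7.61 (1.22), and NOLC1, a nucleolar chaperone of snoRNPs, at 54.0 against 25.1 (1.08). SNU13 overlaps C22orf46, so its value is uncertain. SBDS, which releases a late factor from the 60S subunit, followed at 100.2 FPKM against 74.0 (0.43). The lowest were the nucleolar helicase gene DDX21, at 79.96 against 127 FPKM (-0.66), the exosome subunit gene EXOSC2, at 7.47 against 11.3 (-0.54), and the RNA polymerase I subunit gene POLR1E, at 19.6 against 28.9 (-0.54). FCF1, of the small-subunit processome, was at 11.2 against 15.2 FPKM (-0.41). None of these 145 genes had as low a ratio as PWP2. By step of the pathway, the medians were -0.07 for 46 small-subunit genes, -0.07 for 56 large-subunit genes, 0.02 for 27 snoRNP and nucleolar genes and -0.11 for 16 exosome genes.

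In the pulldown pair 22 of 144 other assembly genes were 2-fold higher (15.3%) and 2 lower (1.39%) than in input, with a median of 0.40. Of all genes 19.6% were 2-fold higher and 2.37% lower. The medians were 0.52 for small-subunit genes, 0.43 for large-subunit genes, 0.23 for snoRNP and nucleolar genes and 0.20 for exosome genes. The highest among genes with 5 FPKM or more in one library of the pair were BYSL, a 40S factor whose span overlaps MED20, at 22.5 FPKM in the pulldown against 6.06 in input (1.73), NOL3 at 7.47 against 1.64 (1.68), the RNA acetyltransferase gene NAT10 at 8.03 against 1.84 (1.67) and PPAN, a 60S factor that overlaps P2RY11, at 10.8 against 2.82 (1.63). NOL3 is known mainly as a repressor of apoptosis, despite the nucleolar name. The lowest were ESF1, a processome gene, at 17.6 against 70.7 FPKM (-1.95), CEBPZ at 17.5 against 39.0 (-1.12), NSA2 at 24.3 against 49.2 (-0.99) and the helicase gene DDX18 at 14.4 against 29.1 (-0.97). NOL3, CEBPZ and NSA2 each overlap another listed gene. Against si_NC, BYSL (-0.43), NAT10 (-1.23) and PPAN (-0.52) were lower in the pulldown.

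Genes that carry the names of cytosolic ribosomal proteins gave another picture. The 33 assembly factors had 5 genes 2-fold higher (15.2%) and 1 lower (3.03%) in the pulldown than in input, with a median of 0.31. The 83 cytosolic ribosomal protein genes, which have many pseudogene copies, had 1 higher (1.20%) and 18 lower (21.7%), with a median of -0.66. They were taken by name, so genes with like names, such as RPL7L1 and RPL22L1, are among them. The 1 higher gene was RPL7L1, at 51.5 FPKM in the pulldown against 24.1 in input (1.07). Of all genes 19.6% were 2-fold higher and 2.37% lower. The assembly factors were thus near the shares of all genes, and the ribosomal protein genes were not. With the pulldown pair scaled to the same summed FPKM the median of the assembly factors was 1.02 and that of the ribosomal protein genes 0.11, beside 1.06 for all genes. In input over si_NC the assembly factors had a median of -0.72, the other assembly genes -0.61 and the ribosomal protein genes 0.51. In the silencer pair both lists leaned below equal levels, with 28 of 33 assembly factors below (median -0.15) and 64 of 83 ribosomal protein genes (median -0.04). These are counts and medians in single libraries, and the difference between the lists was not tested.

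**Figure D4:**
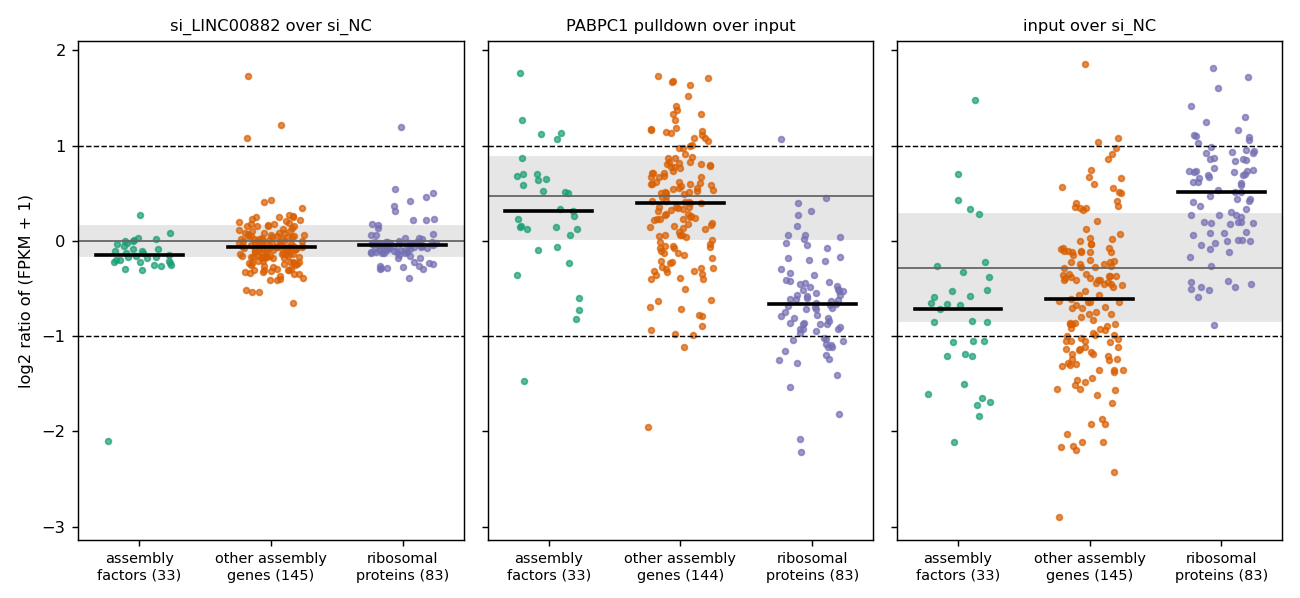
Log2 ratio of FPKM plus 1 for the 33 assembly factors, the other ribosome assembly genes and 83 ribosomal protein genes. The comparisons are si_LINC00882 over si_NC, the PABPC1 pulldown over input and input over si_NC. Each listed entry has 1 point, and a black bar marks the median. The grey band runs between the quartiles of all genes and the grey line is their median, and dashed lines mark 2-fold. The assembly factors have medians of 0.31 in the pulldown and -0.72 in input over si_NC. Those of the other assembly genes are 0.40 and -0.61, and those of the ribosomal proteins -0.66 and 0.51.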

How the data were processed

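RNA was sequenced from 4 libraries, 1 per group, with groups taken from the labels. The files hold 1 FPKM value per gene and library as deposited by the authors, per the file headers. Among the tools in the submitters' processing notes are StringTie 1.3.3 and HISAT2 2.1.0, then cutadapt 1.17 and FastQC 0.11.7, and the build is GRCh37. Annotation, filters and depth are not stated in these sources. FPKM are not counts, so no interval or count model was used.

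Log2 ratios of FPKM plus 1 were computed within pairs for genes that reached 1 FPKM in one library or both, without rescaling. A single library per group allows no p-value, so genes at 2-fold were counted beside the share of all genes. The assembly factor genes and the lists were chosen with earlier results of these data known, and values of all 33 are given. Of the other assembly genes with 5 FPKM or more in one library of a pair, those at 2-fold in the silencer pair and the 4 highest and 4 lowest of each pair were named. The neighbours of PWP2 were named after their values were seen.

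Names were matched to RefSeq (GRCh38.p14) for 11889 of 12119 genes, for overlaps, neighbours and promoters. Protein length was to be compared with the ratios and was not analysed here. The counting step was tested on simulated data, with changes planted well past 2-fold in genes at 5 FPKM or more. That test checks the counting only and says nothing of genes near 1 FPKM. Software was matplotlib 3.10.9, pandas 2.3.3 and numpy 2.4.6 under Python 3.11.15. Alternatives were other pseudocounts, minimums, fold rules and scalings (one without mitochondrial mRNAs), the other control, and leaving out overlapping genes.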

Additional observations from a re-analysis of the deposited data

How the results depend on the processing

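No paired analysis was possible because each group is 1 library. No setting but a pseudocount of 5 removed PWP2 from the genes 2-fold lower in si_LINC00882. In the pulldown pair a minimum of 5 FPKM left PWP2 out, and a 3-fold rule called no assembly factor lower. The PWP2 ratio in that pair was -0.57 with a pseudocount of 5. With that pseudocount the counts at 2-fold in either direction were 0 assembly factors in the silencer pair (against 1), 1 in the pulldown pair (against 6) and 7 in input over si_NC (against 14), with 1 and 6 other assembly genes in the silencer and pulldown pairs. Of all genes 0.534%, 6.92% and 9.17% were then at 2-fold in the 3 comparisons. With a pseudocount of 0.1 the median of input over si_NC was -0.85. A 1.5-fold rule gave 16 assembly factors, 66 other assembly genes and 49 ribosomal proteins in the pulldown pair and 23 assembly factors in input over si_NC, where 48.8% and 50.005% of all genes passed. The share of assembly factors was 48.5% in the pulldown pair and 69.7% in input over si_NC. A 3-fold rule gave 1, 6 and 3 in the pulldown pair, 6 in input over si_NC, and 1 other assembly gene and 0 ribosomal proteins in the silencer pair, where 6.50%, 8.45% and 0.477% of all genes passed. Without overlapping genes 15 other assembly genes were at 2-fold in the pulldown pair, where 22.1% of all genes were.

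Scaling decided the direction of the pulldown group. Centred on the median of all genes, the assembly factors had a median of -0.16 with 5 at 2-fold, other assembly genes -0.067 with 18, and 52 ribosomal proteins were at 2-fold (all genes 15.04%). Input over si_NC then had a median of -0.43 with 8 assembly factors at 2-fold (24.2%, all genes 23.1%). Scaled to the same summed FPKM, an alternative chosen after seeing the data, the pulldown pair had a median of 1.02, beside 1.06 for all genes, with 18 assembly factors (54.5%, all genes 54.6%), 79 other assembly genes and 8 ribosomal proteins at 2-fold, and the median of ribosomal proteins became 0.11. Input over si_NC then had a median of -1.39, beside -0.83 for all genes, with 25 at 2-fold (75.8%, all genes 42.2%). Rescaled without mitochondrial mRNAs, 5 assembly factors were at 2-fold in the pulldown pair (15.2%, all genes 19.7%) and 24 ribosomal proteins.

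With the other pair's control, the medians of assembly factors and other assembly genes became 0.61 and 0.52 for the silencer and -0.35 and -0.34 for the pulldown. At 2-fold were 11 assembly factors, 43 other assembly genes and 13 ribosomal proteins for the silencer (all genes 25.1%), and 7, 7 and 3 for the pulldown (all genes 9.64%). The ratio changed sign for 26 of the 33 assembly factors in the silencer comparison and 22 in the pulldown comparison. Among named genes at 2-fold with their own control, those of NIP7 (-0.64) in the silencer pair and of NOP14 (-0.62), PES1 (-0.35), RRP1 (-0.23), UTP15 (-0.062), BYSL (-0.43), NAT10 (-1.23) and PPAN (-0.52) in the pulldown pair did so. Depth is unknown, so how far it limits genes near 1 FPKM, such as PWP2 and NOP9, cannot be given.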
